A study of Homo sapiens with 6 samples.

Results

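Pre-mRNA splicing is carried out by the spliceosome, and the genes described here encode the proteins at its core: the Sm and LSm ring proteins, the proteins specific to the U1, U2, U5, U4/U6, U11/U12 and U7 small nuclear ribonucleoproteins (snRNPs), the SF3A and SF3B complexes, the U2AF heterodimer and the PRPF factors. They were chosen by gene symbol alone (SNRPA to SNRPG, SNRNP, SF3A, SF3B, LSM and PRPF with a number, U2AF1 and U2AF2, pseudogenes left out), which gave 55 of the 56303 genes in the count table. The libraries came from SW480, an established human colorectal carcinoma cell line. The 3 shMORC2 libraries came from cells that carried a lentiviral short hairpin RNA against MORC2, a nuclear ATPase linked to gene silencing, and the 3 shCtrl libraries from cells that carried a nonsilencing hairpin. Both lines went through infection and puromycin selection, and the study's methods call the selected lines clonal, so a difference between the hairpins and a difference between selected lines cannot be told apart. The methods speak of replicate experiments without saying that the 3 libraries of a group came from separately infected cultures, and p-values therefore measure only the spread between these libraries.

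Each snRNP is built on a small RNA. The 7 Sm proteins close into a ring around the U1, U2, U4, U5, U11 and U12 RNAs, and LSM2 to LSM8 form the related ring on U6. LSM1 takes the place of LSM8 in the cytoplasmic ring, which takes part in mRNA decay. During splicing U1 recognises the 5′ splice site, U2AF and then U2 with SF3A and SF3B settle at the branch site, and the tri-snRNP of U4/U6 and U5 brings in the catalytic parts.

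Values are in CPM, the gene counts scaled to library size with TMM factors. Levels of different genes are compared only as RPKM, which also divides by exon length. Fold changes are shMORC2 minus shCtrl on the log2 scale, and "higher" or "lower" is used for an adjusted p below 0.05 in edgeR's quasi-likelihood test with Benjamini-Hochberg adjustment over all 21005 genes tested. Library totals ran from 42092664 to 43434425 counts, of which the 55 genes took 0.755% to 0.800% in shCtrl and 0.778% to 0.790% in shMORC2. MORC2 itself stood at 46.1, 46.4 and 48.8 CPM in the controls and at 35.0, 29.3 and 27.2 CPM after knockdown, a mean of 64.7% of the control level (log2 fold change -0.63, edgeR adjusted p = 0.000216). Of 12 colon epithelial markers 10 passed the filter on low counts, and CDX1 (0 to 4 counts per library) and LGALS4 (2 to 18 counts) did not. Their summed level, nearly all of it from KRT8, KRT18 and KRT19, was 20660 to 26308 CPM in shCtrl and 19597 to 25575 CPM in shMORC2. Single markers moved in both directions, CEACAM5 lower (log2 fold change -1.08, edgeR adjusted p = 0.00265) and KRT20 (0.75, adjusted p = 0.00305) and CDX2 (0.47, adjusted p = 0.0158) higher. Markers of other cell types were low, and the immune and fibroblast sums were apart between the groups: 9 immune markers summed to 39.0 to 46.5 CPM in shCtrl and 60.5 to 108 CPM in shMORC2 with MS4A1 at 0, 9 fibroblast markers to 20.5 to 20.7 and 23.3 to 25.4 CPM with FAP at 0, and 6 endothelial markers to 15.9 to 20.5 and 20.4 to 23.0 CPM with TEK at 0. The part of any of these markers in the results below was not tested. In such bulk libraries a change in the mix of cells and a change of RNA per cell cannot be told apart.

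All 55 genes passed the filter on low counts. Of these, 21 were higher in shMORC2 and 8 were lower, against 19.9% and 19.6% of all genes tested (39.5% in either direction). The remaining 26 were not called, and the median log2 fold change was 0.08 beside -0.01 over all genes. The 3 shMORC2 values lay above all 3 shCtrl values for 24 of the 55 genes and below them for 13, where 25.1% of all genes did so in each direction. Restricting both sides to genes with a mean of at least 10 CPM left 54 of the 55, with 21 higher and 7 lower, against 23.3% and 26.4% of 9872 such genes. The share that was higher thus stood above the background and the share that was lower stood under it. With the replicate number as a block, 24 were higher and 12 lower, against backgrounds of 24.4% and 24.5%.

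**Figure D1:**
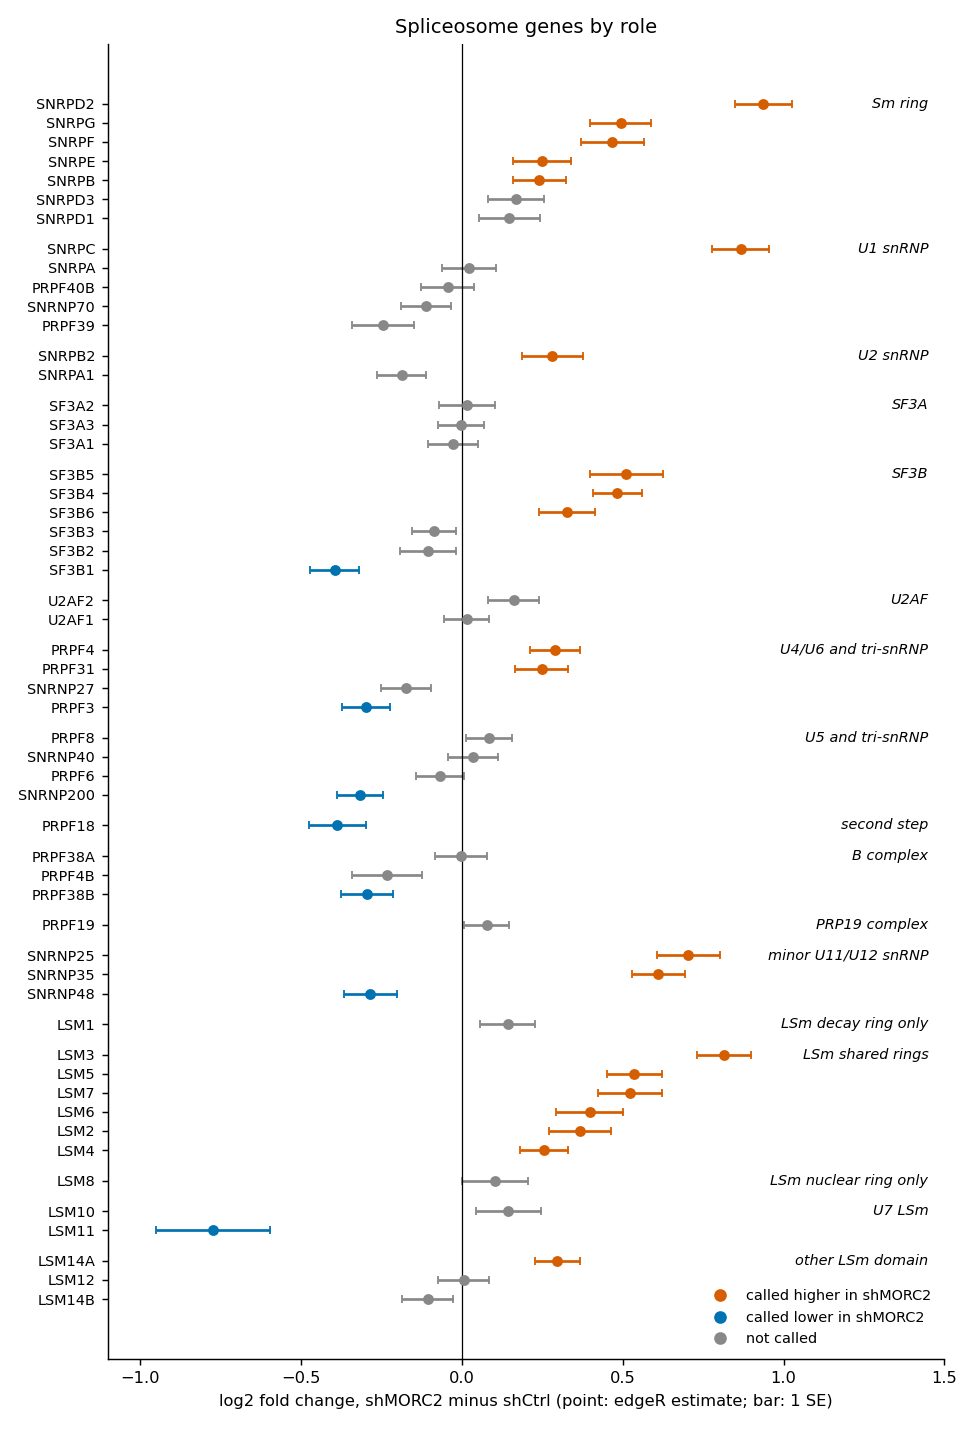
Log2 fold change (shMORC2 minus shCtrl, x axis) of 54 of the 55 genes, grouped by role, with a bar of 1 SE from the edgeR fit and colour for the call. All 15 ring genes lie to the right of 0, whereas the U1, SF3B, tri-snRNP and minor snRNP groups hold genes on both sides.

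The calls were spread unevenly over the complexes. The 15 genes of the Sm and LSm rings held 11 that were higher and 0 that were lower, with a median log2 fold change of 0.37. The 40 genes outside the rings held 10 that were higher and 8 that were lower, with a median of -0.002. Over all genes tested 19.9% were higher and 19.6% lower, and the counts outside the rings lay near these shares.

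Among the Sm ring genes, SNRPD2 (chromosome 19, 45687454 to 45692569, minus strand, GRCh38) changed by more than any other of the 55. It stood at 174, 144 and 180 CPM in the shCtrl libraries and at 314, 302 and 336 CPM in the shMORC2 libraries. Every shMORC2 library was well above every control library, with a log2 fold change of 0.94 (SE 0.09, adjusted p = 5.49e-06). SNRPG (log2 fold change 0.49), SNRPF (0.47), SNRPE (0.25) and SNRPB (0.24) were higher too. The call of SNRPE lay close to the threshold (adjusted p = 0.0417) and was lost in DESeq2 (adjusted p = 0.0508), without TMM (0.0586), without the filter (0.0507) and in limma on RPKM (0.0593 and 0.0607). SNRPD1 (0.15, adjusted p = 0.235) and SNRPD3 (0.17, adjusted p = 0.138) were not called, although the fit with the replicate number as a block called all 7 (edgeR adjusted p = 0.04999 for SNRPD1 and 0.0251 for SNRPD3).

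In RPKM the levels within the Sm ring were uneven, but RPKM divides by all annotated exon bases of a gene. These were 3043 in SNRPF, 1608 in SNRPD2 and 1278 in SNRPB, against canonical transcripts of 452, 515 and 1082 bases. In SNRPD3 they were 2544 against 3466. The order given here therefore holds for this measure only. SNRPB, the source of both SmB and SmB′, had the highest mean in shCtrl, 222 RPKM, and SNRPE the lowest, 19.2 RPKM. SNRPD2 was next below SNRPB and went from 103 to 197 RPKM. The other 5 genes all had shCtrl means from 19.2 to 33.0 RPKM, and the library values of SNRPD3, SNRPF, SNRPG and SNRPE (21.5, 21.6, 20.6 and 19.2 RPKM) overlapped. Some of these genes share reads with other entries: the 20 SNRPG pseudogenes held 38.7% as many counts as SNRPG and had 531 to 637 counts in shCtrl and 862 to 893 in shMORC2, and SNRPB shares 256 exonic bases with the same-strand entry RP4-734P14.4. How the counting split such reads was not tested.

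The 6 LSm genes shared by the nuclear and cytoplasmic rings, LSM2 to LSM7, were all higher. LSM3 (chromosome 3, 14178358 to 14201119) was at 56.0, 46.2 and 53.9 CPM in shCtrl and at 91.6, 91.7 and 91.1 CPM in shMORC2. The shMORC2 libraries lay close together and far from the controls, and the log2 fold change was 0.81 (SE 0.08, adjusted p = 9.97e-06). LSM3 shares 318 bases with XPC on the opposite strand. LSM5 (chromosome 7, 32485332 to 32495283) went from 21.6, 20.1 and 23.3 CPM to 31.7, 32.8 and 29.8 CPM, again without overlap (log2 fold change 0.54, SE 0.09, adjusted p = 0.000335). LSM7 (0.52), LSM6 (0.40), LSM2 (0.37) and LSM4 (0.26) followed.

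The subunits that tell the rings apart were not called. LSM1, of the cytoplasmic ring, was at 30.6, 29.1 and 34.5 CPM in shCtrl and at 34.4, 36.1 and 33.3 CPM in shMORC2. Its groups overlapped, with a log2 fold change of 0.14 (95% interval -0.03 to 0.31, adjusted p = 0.211). LSM8, of the nuclear ring, was at 16.3, 13.5 and 15.4 CPM against 15.2, 17.3 and 16.0 CPM. Its groups overlapped as well (log2 fold change 0.10, interval -0.10 to 0.30, adjusted p = 0.446). The LSM1 to LSM8 log2 ratio was 1.06 ± 0.13 in shCtrl and 1.10 ± 0.07 in shMORC2 (SD, n = 3, exact permutation p = 0.8, two-sided, adjusted 0.8). LSM8 had the lowest level of the ring genes, 2.43 RPKM in shCtrl.

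**Figure D2:**
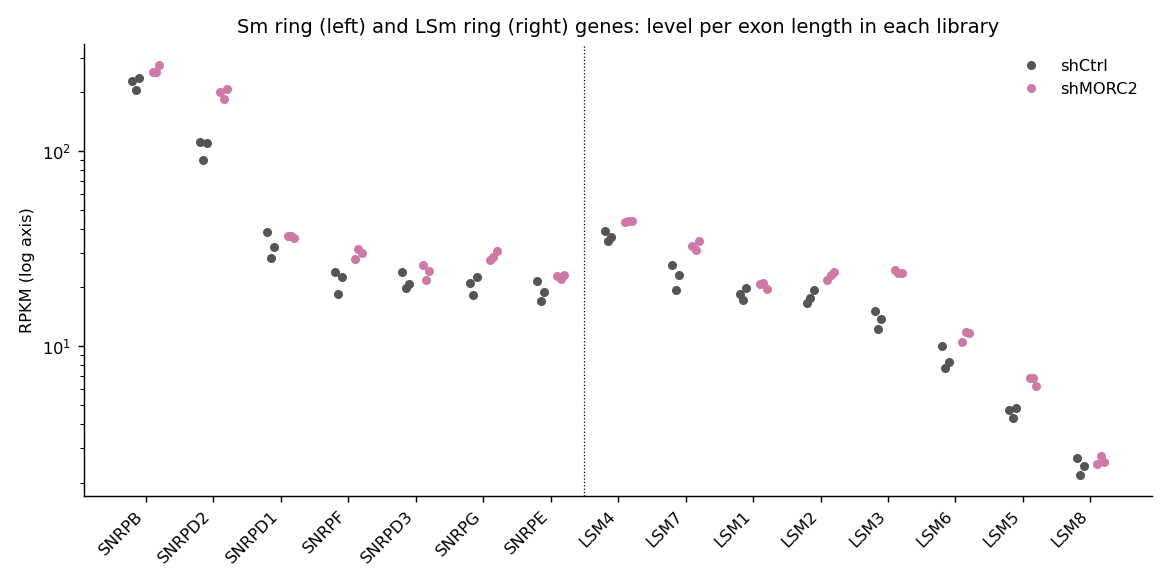
RPKM (y axis, log scale) of the 7 Sm ring genes and 8 LSm ring genes in each library, shCtrl in grey and shMORC2 in pink, sorted by the shCtrl mean within each ring. SNRPB and SNRPD2 stand above the other Sm genes in both groups, and LSM3 and SNRPD2 show the widest gaps between groups.

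Promoters were examined for 45 of the 55 genes, those with an entry in the RefSeq promoter table (GRCh38.p14, 250 bases before to 50 after the start listed there). The letters CCGGAAG, the core of the site bound by ETS family factors, occurred on either strand in 20 of the 45 windows (44.4%), against 10.7% of all 27305 windows and 17.5% of the 11440 windows of tested genes. Of these 20 genes 9 were higher, 2 were lower and 9 were not called, and of all 45 genes 18, 6 and 21. The letters were therefore found with genes that moved either way. CCAAT occurred in 44.4% of the 45 windows, against 35.7% of all windows and 36.4% of those of tested genes. In the same order, AAGATGGC (YY1) occurred in 11.1%, against 3.03% and 4.91%, and CACGTG (E-box) in 4.44%, against 7.43% and 9.93%. The NRF1 site occurred in 2.22%, against 1.36% and 2.16%, and TGACGTCA (CRE) in 2.22%, against 1.98% and 3.02%. Each was searched on both strands. To show these letters in place, 30 bases around the match are printed for the top 4 genes that were higher and for the 2 that were lower among the called genes with a match before the listed start. They run 5′ to 3′ on the gene's strand, with CCGGAAG or its reverse complement in capitals. SNRPD2 is shown at chr19:45692361-45692390 (minus strand), SNRPC at chr6:34757281-34757310 (plus strand), where both orientations overlap, SNRPG at chr2:70293490-70293519 (minus strand), SF3B4 at chr1:149927811-149927840 (minus strand), SNRNP200 at chr2:96305565-96305594 (minus strand) and PRPF18 at chr10:13586936-13586965 (plus strand).
SNRPD2: ggtccatgcccCTTCCGGatgtaggcaggg
SNRPC: taaatacgctCTTCCGGAAGcaccgacaaa
SNRPG: cttcatttcttCTTCCGGtccgaggtcgcc
SF3B4: ccgtcttcgccCCGGAAGtggaagtcgtgc
SNRNP200: tggggcgcgacCCGGAAGcggaagggaacc
PRPF18: cccagcttccgCCGGAAGcggctcctgtca
The capitals begin 63 bases before the listed start in SNRPD2, 50 in SNRPG, 26 in SF3B4, 37 in SNRNP200 and 18 in PRPF18. In SNRPC they begin 214 bases before. The genes as counted can begin further upstream than the listed start. On the minus strand SNRPG runs to 70293771, SNRPD2 to 45692569 and SF3B4 to 149928344, and PRPF18 begins at 13586927 on the plus strand. These printed sites thus lie inside the counted genes, whereas those of SNRPC and SNRNP200 lie before them. The 2 lower genes carry the letters as written, close to the listed start, as does SF3B4, which was higher. A match of letters is a description and no binding was measured.

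In the U1 snRNP the 3 U1-specific proteins differed. SNRPC (chromosome 6, 34757406 to 34773794), which helps U1 hold the 5′ splice site, was at 115, 91.4 and 104 CPM in shCtrl and at 179, 192 and 195 CPM in shMORC2. All shMORC2 libraries were higher than all controls (log2 fold change 0.87, SE 0.09, adjusted p = 9.39e-06). SNRNP70 (chromosome 19, 49085419 to 49108605), which binds the first stem of U1 RNA, was at 488, 481 and 511 CPM against 415, 477 and 477 CPM. The groups did not overlap but were close, and the gene was not called (log2 fold change -0.11, 95% interval -0.27 to 0.04, adjusted p = 0.281). SNRPA (chromosome 19, 40750637 to 40765389) was at 137, 141 and 155 CPM against 131, 155 and 153 CPM, which overlapped (0.02, interval -0.14 to 0.19, adjusted p = 0.856).

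Of the U1-associated PRPF proteins described here, PRPF40B had a log2 fold change of -0.04 and PRPF39 of -0.24, and neither was called (edgeR adjusted p = 0.702 and 0.0572). The block fit called PRPF39 (adjusted p = 0.00719).

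At the branch site the parts of U2 also went different ways. SNRPB2 was higher (log2 fold change 0.28, a call lost in limma on RPKM, adjusted p = 0.0525 and 0.0543), while its partner SNRPA1 had a value of -0.19 and was not called (adjusted p = 0.0662, and 0.0136 with the block). None of the 3 SF3A genes was called, with log2 fold changes of -0.03 to 0.02. Of the 6 SF3B genes, the small subunits SF3B5 (0.51) and SF3B6 (0.33) and the RNA-binding subunit SF3B4 (0.48) were higher, SF3B2 (-0.10) and SF3B3 (-0.09) were not called, and SF3B1 was lower.

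SF3B1 (chromosome 2, 197389784 to 197435091), the large scaffold that closes over the branch-point adenosine, was at 459, 452 and 458 CPM in shCtrl and at 372, 349 and 320 CPM in shMORC2. Each shMORC2 library lay under the narrow control range (log2 fold change -0.40, SE 0.08, adjusted p = 0.00123). The shMORC2 mean was 0.760 times the control mean. For U2AF, the heterodimer that reads the polypyrimidine tract and the 3′ splice site AG, no change was called. U2AF2 (chromosome 19, 55654146 to 55674715), the large subunit, was at 360, 316 and 357 CPM against 383, 365 and 408 CPM, without overlap (log2 fold change 0.16, interval 0.01 to 0.32, adjusted p = 0.122, and 0.0145 with the block). U2AF1 (chromosome 21, 43092956 to 43107587), the small subunit, was at 117, 111 and 117 CPM against 117, 115 and 117 CPM, which overlapped (0.02, interval -0.12 to 0.15, adjusted p = 0.883). U2AF1L5, a near-identical copy in this annotation, held 25.6% as many counts as U2AF1, so the level of U2AF1 is uncertain.

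**Figure D3:**
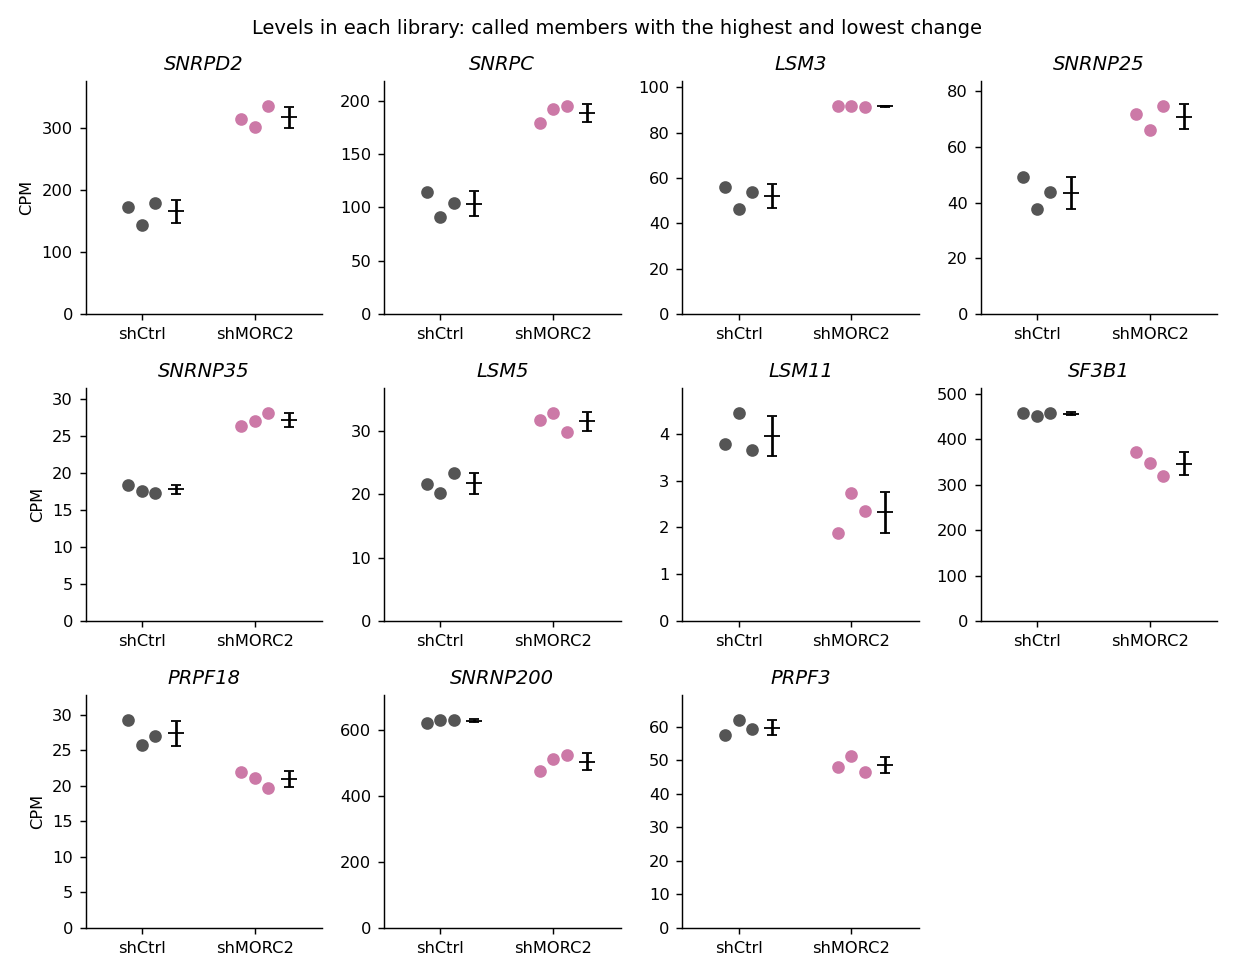
CPM (y axis, from 0) in each library for 11 of the genes with the highest and lowest log2 fold changes among those called, shCtrl in grey and shMORC2 in pink, with the mean and SD (n = 3) beside each group. In all 11 panels the shCtrl and shMORC2 points do not overlap, and LSM11 is under 5 CPM in every library.

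In the tri-snRNP, the U4/U6 proteins PRPF3 and PRPF4 bind each other yet moved in opposite directions. PRPF3 (chromosome 1, 150321476 to 150353195) went from 57.6, 62.1 and 59.4 CPM to 48.0, 51.4 and 46.4 CPM. The groups were apart (log2 fold change -0.30, SE 0.08, adjusted p = 0.00728), and PRPF4 was higher by 0.29. PRPF31 (chromosome 19, 54115410 to 54131719), which joins U4/U6 to U5 and is mutated in a form of retinitis pigmentosa, was at 193, 163 and 170 CPM in shCtrl and at 204, 199 and 222 CPM in shMORC2. Its groups were apart and it was higher (0.25, SE 0.08, adjusted p = 0.0295), a call lost in limma on RPKM (adjusted p = 0.0596 and 0.0601). SNRNP27 had a value of -0.17 and was not called (adjusted p = 0.096, and 0.0259 with the block).

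Among the U5 proteins SNRNP200 (Brr2; chromosome 2, 96274336 to 96305515), the helicase that unwinds U4 from U6, was at 624, 633 and 630 CPM in shCtrl and at 477, 515 and 524 CPM in shMORC2. The control libraries were nearly level and all shMORC2 libraries were lower (log2 fold change -0.32, SE 0.07, adjusted p = 0.00374). PRPF8 (chromosome 17, 1650629 to 1684882), the protein that cradles the catalytic centre, was at 477, 481 and 490 CPM against 483, 520 and 530 CPM. Its groups overlapped (0.08, interval -0.06 to 0.22, adjusted p = 0.383). PRPF6 (chromosome 20, 63981135 to 64033100), a bridge between U5 and U4/U6, was at 192, 188 and 179 CPM against 168, 175 and 190 CPM, which overlapped (-0.07, interval -0.22 to 0.08, adjusted p = 0.498). SNRNP40 had a value of 0.03 and was not called.

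Of the 5 factors that act later or only for a time, 2 were lower and 0 were higher. Over all genes tested 19.6% were lower and 19.9% higher, and 5 genes are too few to set apart from these shares. PRPF18 (chromosome 10, 13586927 to 13630868), which takes part in the second catalytic step, went from 29.3, 25.7 and 27.0 CPM to 22.0, 21.1 and 19.7 CPM. All shMORC2 libraries were lower (log2 fold change -0.39, SE 0.09, adjusted p = 0.00346), and 783 of its exonic bases are shared with the same-strand entry RP11-295P9.13. PRPF38B was lower (-0.30), and PRPF38A (0.00) and the kinase PRPF4B (-0.23, adjusted p = 0.107, and 0.00149 with the block) were not called. PRPF19 (chromosome 11, 60890730 to 60906588), the ubiquitin ligase of the PRP19 complex, was at 112, 110 and 112 CPM against 115, 114 and 122 CPM. The groups were apart by a small margin, and the gene was not called (0.08, interval -0.06 to 0.21, adjusted p = 0.41).

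The minor spliceosome removes a small class of introns with its own U11 and U12 snRNPs. All 3 of its genes in the set were called, where 39.5% of all genes tested were called in either direction. SNRNP25 (chromosome 16, 53010 to 57669) was at 49.1, 37.5 and 43.7 CPM in shCtrl and at 71.9, 65.9 and 74.6 CPM in shMORC2. Every shMORC2 library was higher (log2 fold change 0.70, SE 0.10, adjusted p = 0.000107), and SNRNP25 shares 153 bases with POLR3K on the other strand. SNRNP35 (chromosome 12, 123457641 to 123473154) was at 18.4, 17.6 and 17.3 CPM against 26.3, 27.1 and 28.2 CPM. It too was higher in each library (0.61, SE 0.08, adjusted p = 8.27e-05), and 2063 of its bases overlap RILPL1 on the opposite strand. SNRNP48 was lower (-0.28, adjusted p = 0.0149).

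LSM10 and LSM11 replace a pair of Sm proteins in the U7 snRNP, which trims the 3′ end of histone mRNA. LSM11 (chromosome 5, 157743695 to 157760709) was at 3.79, 4.45 and 3.65 CPM in shCtrl and at 1.87, 2.74 and 2.35 CPM in shMORC2. It had the lowest level of the 55 genes (0.603 RPKM in shCtrl) and also the lowest log2 fold change, -0.77 (SE 0.18, adjusted p = 0.00392), with no overlap between groups. LSM10 had a value of 0.14 and was not called. Of the LSm-domain genes outside the rings, LSM14A, which acts in cytoplasmic P-bodies, was higher (0.30), and LSM14B (-0.11) and LSM12 (0.01) were not called. LSM12P1 held 151% as many counts as LSM12, and with the copies added LSM12 was still not called.

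Pairs of partners or relatives were compared within each library as a log2 ratio, so that library size drops out. The groups were apart for 7 of 10 pairs, each with the smallest p that 3 against 3 libraries allow (exact two-sided permutation p = 0.1, adjusted 0.143 over the 10 pairs), so that none could reach 0.05. No share over other gene pairs was computed, and of all single genes tested 25.1% were apart in each direction. The pairs were also chosen with earlier results known, so the 7 of 10 is a description of these pairs only. The LSM10 to LSM11 ratio was higher by 0.93 (SE 0.19) and the LSM14A to LSM14B ratio by 0.40 (SE 0.04). PRPF38A to PRPF38B was higher by 0.30 (SE 0.06). SNRPD1 to SNRPD2 fell by 0.78 (SE 0.09) and PRPF3 to PRPF4 by 0.59 (SE 0.08). Smaller shifts separated SNRPE from SNRPF (-0.22) and U2AF1 from U2AF2 (-0.15). The groups overlapped for LSM1 to LSM8 and for SNRPA to SNRPB2 (-0.27, exact permutation p = 0.2).

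**Figure D4:**
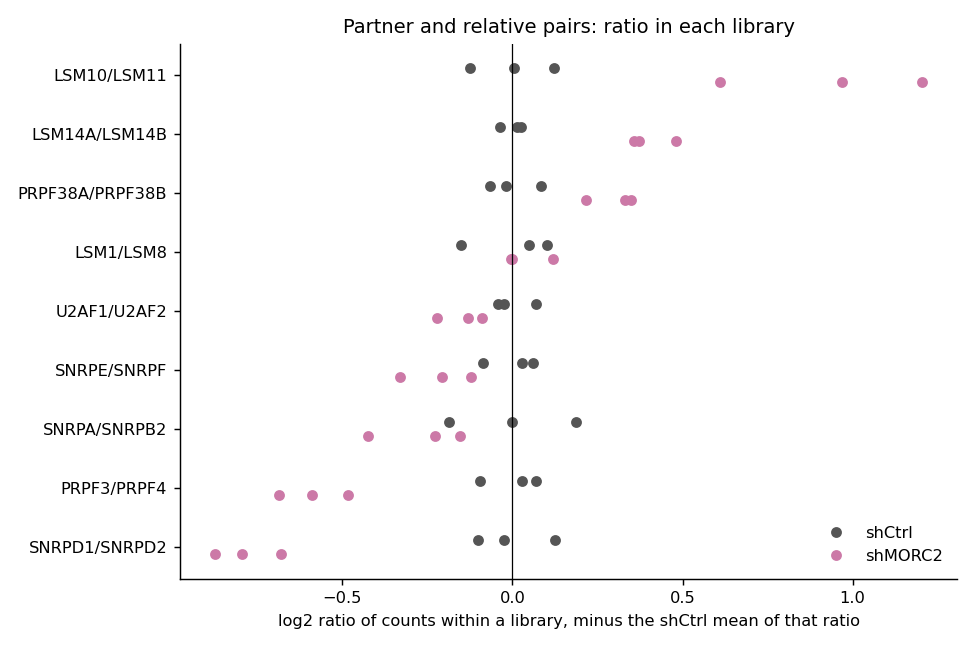
Log2 ratio of counts within each library (x axis, minus the shCtrl mean of that ratio) for 9 pairs of partners or sequence relatives, shCtrl in grey and shMORC2 in pink. For 7 pairs the colours do not overlap, and LSM10/LSM11 and SNRPD1/SNRPD2 lie farthest from 0. No share over other gene pairs was computed.

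A property that the choice by symbol did not use was gene length. Over the 55 genes, Spearman's rho of the log2 fold change with the coding length of the canonical GENCODE transcript was -0.68, and with exon length it was -0.57, where over all 21005 genes tested exon length gave -0.11. These are descriptions across genes of the same 6 libraries, and genes are not independent replicates. Of the 28 genes with under 1000 coding bases (a limit chosen after the values were seen), 17 were higher and 0 were lower, with a median of 0.27. The 27 longer genes held 4 that were higher and 8 (29.6%) that were lower, with a median of -0.09. Of these lower genes, SNRNP48, PRPF18 and LSM11 lay just above the limit, at 1017, 1026 and 1080 coding bases. The count of 0 lower among the shorter genes therefore depends on where the limit was set. No share of all genes by coding length is given beside these counts, because part of the tested symbols matched no canonical transcript and that comparison was left out. Over all genes tested, of any length, 19.9% were higher and 19.6% lower. By exon length, 11.8% of the shortest quartile and 29.9% of the longest were lower. The counts are therefore not read as particular to these 55 genes. The ring proteins are all short, so ring membership and length overlap in this set.

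Exon length moved with the calls of all genes as well. In quartiles of exon length over all tested genes, 11.8% of the shortest and 29.9% of the longest were lower, and 19.3% and 16.9% were higher. The members fell 7, 20, 16 and 12 into these quartiles from short to long, with 6, 10, 5 and 0 that were higher and 0, 1, 3 and 4 that were lower. In the second quartile (up to 3553 bases) the 10 of 20 stood beside 23.1% of all genes. With the trend on exon length taken out of each library and the replicate number as a block, 23 were higher and 12 lower, against 24.4% and 23.4% of all genes. RNA quality was not measured in the files, and its part in the trend was not tested.

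**Figure D5:**
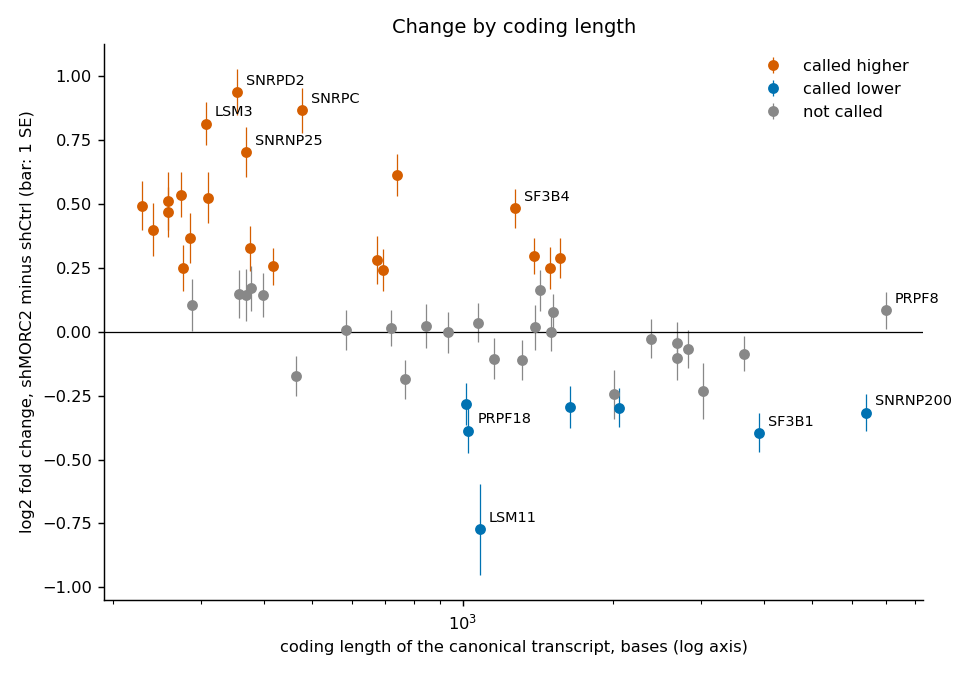
Log2 fold change (y axis, bar of 1 SE) against coding length in bases (x axis, log scale) for 54 of the 55 genes, coloured by call. Under 1000 bases, a limit chosen after the values were seen, 17 of 28 genes are higher and 0 are lower. The 7 lower genes shown all lie at 1000 bases or more, with SNRNP48, PRPF18 and LSM11 just above the limit (1017, 1026 and 1080 bases).

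Genes for proteins that work with these complexes were examined in 8 lists. Of 105 genes tested, 12 (11.4%) were higher and 22 (21.0%) were lower, against 19.9% and 19.6% of all genes tested, with a median of -0.05. The share that was lower was thus near the background in this fit. With the block 17 were higher and 36 lower, against 24.4% and 24.5% of all genes tested. The lower share then stood above its background. With a library left out 7 to 11 were higher and 10 to 23 lower. Over all genes tested, 6268 to 8433 were then called in either direction. The fewest lower, 10, came without shMORC2 replicate 3, while 11 were lower without shCtrl replicate 2 and without shMORC2 replicate 2. Of 14 U2 partners 3 were higher, among them PUF60 (0.32), which acts beside U2AF, and 2 were lower, among them U2SURP (-0.37). Of 16 tri-snRNP partners 2 were higher, MFAP1 (0.43) and SNU13 (0.25), which binds the U4 stem, and 0 were lower. Of 23 PRP19-complex and step factors 2 were higher and 4 were lower, among them XAB2 (-0.52).

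The other 5 lists are small, and their counts are given as such beside the same background. Of 8 U1 partners 3 were lower, among them LUC7L3 (-0.44), and its relative LUC7L2 was higher (0.41). Of 7 minor-spliceosome partners RNPC3 (-0.75) was lower and ZMAT5 (0.71) was higher, both U11/U12 proteins. Of 17 assembly genes, which load Sm proteins onto the small RNAs, 3 were lower, among them GEMIN5 (-0.46), and GEMIN6 was higher (0.29). Of 12 genes of mRNA decapping and decay, the partners of the cytoplasmic LSm ring, 6 were lower (median -0.23), among them XRN1 (-0.52), the exonuclease, and PATL1 (-0.24), which binds that ring, and EDC3 was higher (0.34). Of 8 U7 partners 3 were lower (median -0.26), among them SLBP (-0.39), which binds the histone stem-loop, and CPSF3 was higher (0.28).

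Some calls were lost when a library was left out, which also leaves fewer libraries for the test. Over all genes tested, the number called fell from 8301 to 6428 without shCtrl replicate 2. It fell to 6553 without shMORC2 replicate 2 and to 6268 without shMORC2 replicate 3. A lost call therefore does not show that it rested on that library. Of the 29 called genes, 19 were called with each library left out in turn, and none changed sign. Without shCtrl replicate 2, 15 were higher and 7 lower, and SNRPB, SNRPE, SNRPB2, SF3B6, PRPF31, SNRNP48 and LSM4 were not called (log2 fold changes 0.18, 0.17, 0.18, 0.28, 0.20, -0.26 and 0.21). Without shMORC2 replicate 2, 15 were higher and 7 lower, and SNRPB, SNRPE, SNRPB2, SF3B6, PRPF4, PRPF38B and LSM4 were not called (0.25, 0.26, 0.26, 0.26, 0.25, -0.28 and 0.24). Without shMORC2 replicate 3, 16 were higher and 5 lower, and genes not called included SNRPB, SNRPE, SNRPB2, PRPF31, PRPF38B, SNRNP48 and LSM4 (0.20, 0.24, 0.31, 0.20, -0.23, -0.22 and 0.25). Without shCtrl replicate 1 SNRPB (0.24) and without shCtrl replicate 3 SNRPE, PRPF31 and SNRNP48 (0.26, 0.23 and -0.27) were not called. The 11 genes plotted by library for the highest and lowest changes were called in each of these.

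The authors' table of splicing events, made with rMATS, lists an event in 3 of the 55 genes, beside 5.62% of all genes tested. Its inclusion columns name no group, so no level or direction is given. In LSM14A the listed event is a skipped exon of 57 bases at chr19:34226408-34226464 (plus strand), which is not among the 10 exons of the canonical transcript and holds 21 coding bases before a stop. Its first 24 bases, with the stop codon in capitals, show where the reading frame of those transcripts ends.
LSM14A exon: aaaaccacagcttttggacccTAA
In LSM2 (canonical exons 3 and 2, of 31 and 68 bases) and LSM14B (canonical exons 4 and 5, of 168 and 78 bases) the events are listed as mutually exclusive exons. All of these LSM2 and LSM14B exon bases are coding.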

How the data were processed

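Total RNA from 6 SW480 libraries (3 shCtrl, 3 shMORC2) was made into stranded mRNA libraries with molecular identifiers. Per the labels, the authors used Trimmomatic 0.36, STAR 2.5.3a, featureCounts of Subread 1.5.1 and edgeR 3.12.1 with GRCh38, and deposited gene counts and RPKM. Strand setting, annotation release and identifier collapsing are not given in the sources used here. Of the counts from 1 to 10, 68.8% were even, and intervals cover counting error and library spread only. The deposited RPKM equalled values recomputed from the counts. The splicing table deposited by the authors was used for event positions only, and its p-values, FDR and inclusion differences were not used.

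Here counts were tested with edgeR 4.0.16 (filterByExpr, TMM, quasi-likelihood, group only), with SE from the F statistic and intervals of 1.96 SE. Alternatives were DESeq2 1.42.0, limma 3.58.1 on the log2 of RPKM with 1 or 0.1 added (genes of at least 1 RPKM), no TMM, other filters, the replicate block and each library left out. The script was tested on simulated data. The pairs used exact permutation tests. The symbol rule read literally would drop the 7 SNRNP genes, which end in P and digits, and these were kept. 54 pseudogene symbols were left out. Gene models came from GENCODE 44 and promoters from RefSeq.

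The members, lists and pairs were chosen with earlier results of these data known. Full values were given for the 6 called members with the highest and the 6 with the lowest log2 fold change and for 13 members fixed by role, the others being named within their role. 1 of these members and a pair that holds it are not reported here by name. Same-numbered libraries deviated together (correlations of 0.215, 0.111 and 0.102, the numbers coming from the sample titles), so the block values stand beside the results that they change.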

Additional observations from a re-analysis of the deposited data

How the results depend on the processing

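None of the 29 called genes changed sign in any of the 15 alternatives, and 19 were called in each that tested them. Between 15 and 21 genes were higher and between 5 and 10 lower with a library left out, and the median was 0.0445 to 0.125. Partner genes were 7 to 11 higher and 10 to 23 lower with a library left out. With the replicate block 36 of 105 were lower, against 24.5% of all genes tested. The replicate block changed no other call of the 55 genes than those given above. The genes that turned sign were called neither before nor after: LSM12 without TMM (-0.00192) and in limma on RPKM with 1 (-0.00195) or 0.1 added (-0.00219), and U2AF1 with its copy added (-0.00788). With the block and the exon length trend removed, SNRPA was -0.0354, PRPF40B 0.051, SF3A1 0.0195, SF3A2 -0.0207, SF3A3 0.0101, SF3B3 0.0411, PRPF38A 0.0318 and LSM12 -0.0384. These last alternatives, the copies and the length trend, were chosen after seeing the data. With a library left out, the values ranged from -0.0203 to 0.0968 for SNRPA, -0.037 to 0.0986 for SF3A2, -0.0377 to 0.0267 for SF3A3, -0.0396 to 0.0619 for PRPF38A, -0.00742 to 0.0279 for LSM12, -0.0128 to 0.0333 for U2AF1, -0.0684 to 0.0266 for SF3A1, -0.0824 to 0.00993 for PRPF40B, -0.011 to 0.0735 for SNRNP40 and -0.0366 to 0.0900 for the log2 ratio LSM1/LSM8. The causes were not tested. The depth was lowest for LSM11, with 83 to 188 counts per library.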
